A study of Mus musculus with 18 samples.

Results

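The genes described here are 47 cell cycle genes of the mouse, taken as a fixed list of symbols and matched through Entrez identifiers in the deposited tables. They make up 47 of the 22078 genes in the tables, and all 47 were found. By role they are 13 genes of DNA replication, 22 genes of mitosis, 9 cyclins, kinases and transcription factors, and 3 inhibitors and checkpoint genes. The list was not chosen by measured values, but it was drawn up with earlier results of these data known.

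RNA was sequenced from cultured cortical astrocytes of mouse brain, in 18 libraries that fall into 6 groups of 3. Cells had been transfected with a plasmid for a designer receptor (DREADD), a muscarinic receptor altered to respond to a synthetic ligand, or for a fluorescent control protein. At 90 min the groups were hM3Dq, which couples to Gq and calcium release; rM3Ds, which couples to Gs and raises cAMP; hM4Di, which couples to Gi and lowers cAMP; and the control EGFP. At 3 days the groups were hM3Dq and the control mCherry. On day 7 after transfection all groups, controls included, were given the ligand DCZ (deschloroclozapine) at 8 µM. Exposure lasted 90 min, and the 3-day cultures then went on in medium without DCZ. The plasmids' promoters and the share of cells transfected are not given in the labels, and no group carried a receptor without ligand. The cells were grown in serum and passaged before confluence. Values below are CPM, a gene's count scaled to the total of its library, with replicates 1, 2 and 3 given in that order. The labels do not say that replicates were separate cultures, so p-values measure only how far libraries differ, and part of that may be technical. In bulk RNA, fewer cycling cells and less RNA per cycling cell cannot be told apart.

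Cells enter the cycle when cyclin D and its kinases phosphorylate the retinoblastoma protein and release E2F factors, which switch on genes for DNA replication and nucleotide supply. The later genes of G2 and mitosis (cyclin B, Plk1, the kinesins, the spindle checkpoint) are switched on by the B-Myb and FoxM1 complexes through a promoter element called CHR and nearby CCAAT boxes bound by NF-Y. The inhibitors p21 (Cdkn1a) and p27 (Cdkn1b) bind cyclin-kinase complexes and hold cells back, and p27 is high in resting cells. Astrocytes in culture, unlike most astrocytes of the adult brain, can divide.

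The promoters of members that represent the main roles are shown because the replication and mitosis genes differ in these letters. The same genes also differed in how far they varied between libraries, but a link between letters and variation was not tested. RefSeq promoter windows of 300 bases (250 before the start of the gene and 50 after it) were found for 38 of the 47 members. Only the first window listed for a gene was used, so any other start of that gene was not searched. The members without one are Mcm4, Gins2, Kif20a, Aurkb, Tpx2, Ccna2, Ccnd1, Ccne2 and Foxm1. Each sequence below is the 250 bases before the start, 5′ to 3′ on the strand of the gene, from RefSeq on build GRCm38.p6, whereas the deposited counts were made on mm39. Capitals mark matches on either strand to 3 kinds of letters. The CHR element was searched as TTTGAA, its commoner spelling, and as TTCGAA, its rarer spelling. The box bound by NF-Y was searched as CCAAT. The E2F element was searched as TTCCCGC and, in 3 further spellings, as TTGGCGC, as TTCGCGC and as TTGCCGC. Top2a, Plk1, Cdk1 and Ccnb1 stand for the G2 and mitosis genes, Mcm5 and Rrm2 for replication, Ccne1 for entry into S phase, and Gadd45a and Cdkn1a for the checkpoint genes.
Top2a, chr11:99024190-99024439, minus strand: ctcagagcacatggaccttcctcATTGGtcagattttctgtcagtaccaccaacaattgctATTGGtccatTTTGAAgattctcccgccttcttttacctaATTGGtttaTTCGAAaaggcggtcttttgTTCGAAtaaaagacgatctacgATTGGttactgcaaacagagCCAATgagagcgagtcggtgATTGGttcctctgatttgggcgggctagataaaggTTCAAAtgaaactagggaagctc
Plk1, chr7:122159185-122159434, plus strand: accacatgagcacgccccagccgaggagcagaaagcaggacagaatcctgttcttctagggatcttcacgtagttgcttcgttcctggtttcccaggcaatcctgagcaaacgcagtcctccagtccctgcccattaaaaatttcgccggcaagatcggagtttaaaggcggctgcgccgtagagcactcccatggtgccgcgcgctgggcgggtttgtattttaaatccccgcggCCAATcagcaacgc
Cdk1, chr10:69352913-69353162, minus strand: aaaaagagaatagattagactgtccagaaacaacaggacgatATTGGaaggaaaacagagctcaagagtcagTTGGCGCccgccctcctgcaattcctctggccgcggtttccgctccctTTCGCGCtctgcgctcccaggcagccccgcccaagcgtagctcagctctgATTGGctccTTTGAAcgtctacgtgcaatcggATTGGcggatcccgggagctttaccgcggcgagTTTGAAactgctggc
Ccnb1, chr13:100786487-100786736, minus strand: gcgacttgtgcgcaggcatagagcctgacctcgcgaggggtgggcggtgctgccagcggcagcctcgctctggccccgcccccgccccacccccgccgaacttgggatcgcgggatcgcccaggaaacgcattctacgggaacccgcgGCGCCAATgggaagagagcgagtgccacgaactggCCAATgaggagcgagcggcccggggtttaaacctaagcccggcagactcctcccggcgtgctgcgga
Mcm5, chr8:75109259-75109508, plus strand: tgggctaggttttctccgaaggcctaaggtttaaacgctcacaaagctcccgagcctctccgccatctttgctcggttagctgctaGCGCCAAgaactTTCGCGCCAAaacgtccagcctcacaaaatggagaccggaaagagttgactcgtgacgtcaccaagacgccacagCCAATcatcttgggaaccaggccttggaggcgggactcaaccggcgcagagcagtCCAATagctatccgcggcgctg
Rrm2, chr12:24708004-24708253, plus strand: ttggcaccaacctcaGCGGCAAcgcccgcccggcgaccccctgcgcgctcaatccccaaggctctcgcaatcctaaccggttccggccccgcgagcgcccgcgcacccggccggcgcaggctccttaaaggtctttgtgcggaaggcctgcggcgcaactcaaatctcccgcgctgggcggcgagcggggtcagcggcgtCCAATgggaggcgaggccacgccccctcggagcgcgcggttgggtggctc
Ccne1, chr7:38107491-38107740, minus strand: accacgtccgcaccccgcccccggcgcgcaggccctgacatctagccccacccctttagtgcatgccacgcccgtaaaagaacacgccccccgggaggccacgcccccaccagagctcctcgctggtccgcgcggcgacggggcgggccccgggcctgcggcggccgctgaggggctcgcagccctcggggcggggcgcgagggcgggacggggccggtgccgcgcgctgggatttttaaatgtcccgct
Gadd45a, chr6:67037408-67037657, minus strand: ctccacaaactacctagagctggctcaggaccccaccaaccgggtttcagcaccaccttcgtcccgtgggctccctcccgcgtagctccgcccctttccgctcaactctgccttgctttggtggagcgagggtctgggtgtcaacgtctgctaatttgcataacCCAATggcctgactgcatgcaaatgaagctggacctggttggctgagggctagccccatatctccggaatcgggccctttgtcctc
Cdkn1a, chr17:29090729-29090978, plus strand: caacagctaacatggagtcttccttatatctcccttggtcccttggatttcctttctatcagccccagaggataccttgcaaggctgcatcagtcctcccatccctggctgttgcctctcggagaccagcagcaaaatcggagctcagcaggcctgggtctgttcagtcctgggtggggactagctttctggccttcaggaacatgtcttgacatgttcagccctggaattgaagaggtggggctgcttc

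Among the 19 mitosis genes with a window, 16 (84.2%) held the CHR letters, against 19.4% of the windows of all 27025 genes. Of the 11 replication genes with a window 2 (18.2%) held them, and of the 5 cyclin, kinase and factor genes 2 (40.0%). The E2F letters ran the other way: 8 of 11 replication genes (72.7%) and 3 of 19 mitosis genes (15.8%) held them, against 9.69% of all windows. CCAAT was found in 8 of the replication genes (72.7%) and 15 of the mitosis genes (78.9%), against 37.9% of all windows. Top2a, the topoisomerase that untangles chromosomes, held 4 CHR and 6 CCAAT matches. Cdk1, the mitotic kinase, held matches of all 3 kinds, 2 of them CHR. The CHR match of Plk1 lies 30 bases after the start, outside the stretch shown. In Ccnb1 the letters of an E2F and a CCAAT match overlap. In Mcm5, a subunit of the replicative helicase, 2 E2F matches overlap on opposite strands. None of the 3 inhibitors held CHR or E2F letters in this window, and the stretches of Ccne1 and Cdkn1a hold no match of any kind. A match is a description of letters and not a measured binding site.

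Before any comparison, 3 of the 12 libraries at 90 min stood apart in these genes. EGFP replicate 1 was the highest of the 12 libraries for 45 of the 47 members, and rM3Ds replicates 2 and 3 were each among the 3 highest for 43. The median member of EGFP 1 lay 1.84 above the mean of the 12 libraries on the log2(CPM + 0.25) scale. For rM3Ds 2 and 3 it lay 1.13 and 1.02 above. The other 2 EGFP libraries had medians of -0.61 and -0.73 and rM3Ds 1 had -0.74, so these libraries lay on opposite sides of the mean within the same group. The 3 hM3Dq libraries had medians of -0.30, -0.76 and -0.63, and the hM4Di libraries 0.22, 0.42 and -0.50. At 3 days the spread was smaller: medians ran from -0.14 to -0.08 in hM3Dq and were -0.15, 0.24 and 0.34 in mCherry.

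**Figure D1:**
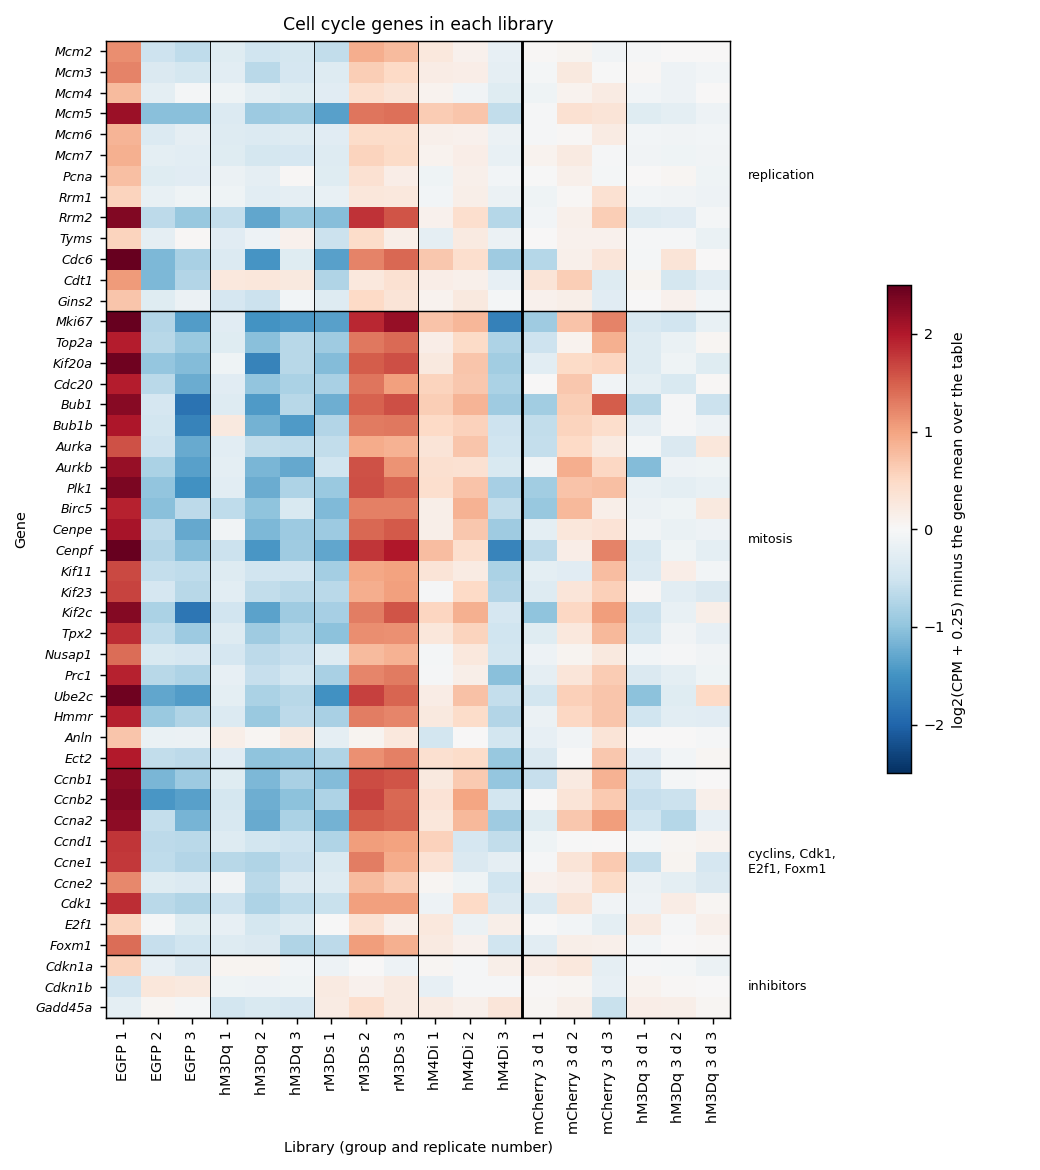
Each row is a cell cycle gene and each column a library; colour gives log2(CPM + 0.25) minus the gene's mean over the 12 libraries at 90 min or the 6 at 3 days. EGFP 1 and rM3Ds 2 and 3 are red (above the mean) for 45, 47 and 46 of 47 genes, with medians of 1.84, 1.13 and 1.02. Of the 3 inhibitors 1, 3 and 2 lie above the mean in these libraries, with medians of -0.24, 0.11 and 0.21. The 3-day libraries are pale.

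These 3 libraries held 21.5, 17.7 and 16.1 M counts, within the 16.1 to 25.2 M of the libraries at 90 min; those at 3 days held 16.6 to 19.7 M. All 12 astrocyte markers (Aqp4, Slc1a2, Aldoc and others) reached 3 counts in each of the 18 libraries. Gfap, the defining intermediate filament of astrocytes, was low throughout, from 1.70 to 22.7 CPM with the highest value in EGFP 1. The summed level of the astrocyte markers was 518 CPM in EGFP 1, against 962 to 1246 CPM in the other 11 libraries at 90 min; rM3Ds 2 and 3 had 1115 and 1154 CPM. The summed level of 12 neural progenitor markers was 1815 CPM in EGFP 1 and 2341 and 2429 CPM in rM3Ds 2 and 3, against 1172 to 1680 CPM in the other 9. Fabp7, a lipid-binding protein of radial glia, was 51.8, 86.3 and 80.4 CPM in those 3 libraries and 2.78 to 17.2 CPM in the others; Hes5 was at 0 in EGFP 1. The 10 neuron markers summed to 208, 205 and 215 CPM in the 3 libraries, against 104 to 192 CPM. Only 6, 5 and 5 of these 10 markers reached 3 counts there, so the sums rest on a part of the list. The 8 endothelial markers summed to 19.0, 12.8 and 12.4 CPM in the 3 libraries, against 26 to 45.4 CPM. The hM3Dq libraries, at 43.3 to 45.4 CPM, lay above every other library at 90 min in this sum. Of 3 endothelial markers tested, 1 was called higher in hM3Dq against EGFP (edgeR adjusted p = 0.0351). Against rM3Ds and against hM4Di 1 was called higher too (edgeR adjusted p = 0.00457 and 0.0148). In the difference between times 1 was called lower (edgeR adjusted p = 0.0132). Microglia markers summed to 2.83 to 11.1 CPM, with EGFP 1 the highest, and oligodendrocyte lineage markers to 98.4 to 124 CPM at 90 min. Fibroblast and mural markers summed to 1969 to 3524 CPM, with 8 to 10 of the 10 at 3 counts or more in each library. The part of these other cell types in the cell cycle values was not tested. Because the 3 libraries were recognised by the cell cycle genes themselves, values without them are given below as a description of the other libraries.

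Among the genes that drive division, those of replication varied least between libraries. Mcm2, Mcm3, Mcm4, Mcm5, Mcm6 and Mcm7 form the ring that unwinds DNA, Gins2 belongs to the same active helicase, and Cdc6 and Cdt1 load the ring before S phase. Pcna is the sliding clamp of the polymerases, and Rrm1, Rrm2 and Tyms make the building blocks of DNA. Over the 12 libraries at 90 min the ratio of the highest to the lowest library had a median of 2.45 in the 12 replication genes with at least 10 counts in every library. The same ratio had a median of 1.57 over the 12386 genes of the tables that met this minimum. The range ran from 1.79 for Rrm1 to 12.9 for Rrm2, 2 subunits of the same enzyme, ribonucleotide reductase.

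Mcm2 was at 70.3, 21.9 and 20.2 CPM in EGFP, 25.5, 22.3 and 23.2 CPM in hM3Dq, 20.5, 59.2 and 54.5 CPM in rM3Ds and 37.6, 34.1 and 27.1 CPM in hM4Di. Mcm5 varied more, at 39.4, 4.09 and 4.12 CPM in EGFP, 6.85, 4.56 and 4.68 CPM in hM3Dq, 3.27, 22.6 and 23 CPM in rM3Ds and 13.8, 14.3 and 5.66 CPM in hM4Di. For both genes EGFP 1, rM3Ds 2 and rM3Ds 3 were the 3 highest libraries, and EGFP overlapped every other group. Rrm2, the subunit made for S phase, was at 54.3, 6.75 and 5.48 CPM in EGFP, 7.04, 4.21 and 5.53 CPM in hM3Dq, 5.01, 38.2 and 32.7 CPM in rM3Ds and 11.6, 14.5 and 6.45 CPM in hM4Di. Pcna, which also serves DNA repair, was flatter: 110.0, 53 and 53.9 CPM in EGFP, 59.1, 55.9 and 66.4 CPM in hM3Dq, 53, 84.8 and 72.9 CPM in rM3Ds and 60.3, 71.2 and 62.4 CPM in hM4Di. Cdc6 was sparse, at 9.34, 0.519 and 0.699 CPM in EGFP, 1.08, 0.355 and 1.1 CPM in hM3Dq, 0.403, 3.71 and 4.29 CPM in rM3Ds and 2.42, 1.99 and 0.66 CPM in hM4Di, where 3 counts correspond to 0.119 to 0.187 CPM. In all 3 of these genes the same 3 libraries were the highest.

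Cdt1 followed another pattern. It was at 10.4, 10.5 and 10.2 CPM in the 3 hM3Dq libraries, which lay close together, and at 9.63, 9.45 and 7.42 CPM in hM4Di, with no overlap between these groups. In EGFP it was at 18.2, 3.81 and 5.07 CPM and in rM3Ds at 5.01, 10.3 and 11.3 CPM. The hM3Dq libraries thus lay below EGFP 1 and above EGFP 2 and 3. The fitted difference between hM3Dq and EGFP was 0.22 ± 0.51 (log2, SE, n = 3 per group; edgeR adjusted p = 0.977).

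**Figure D2:**
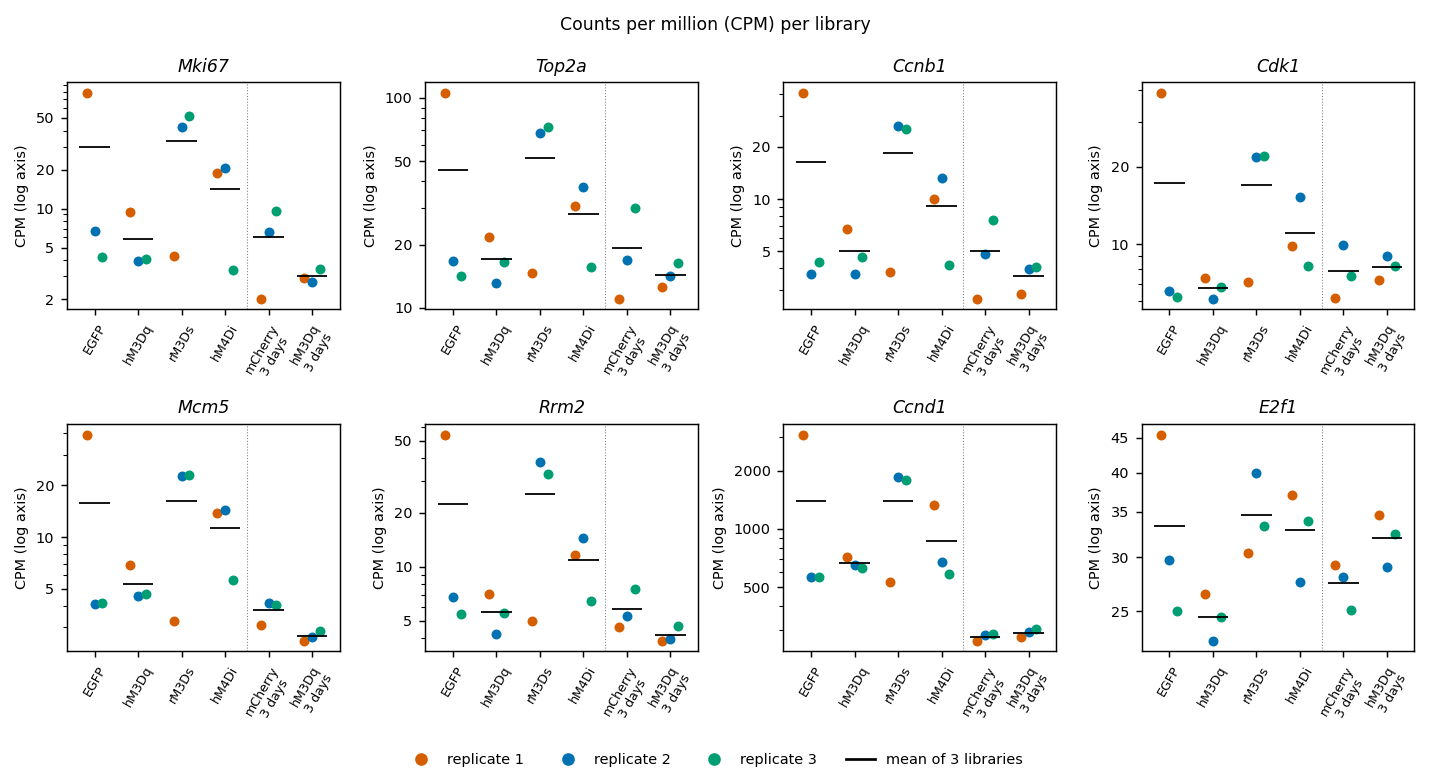
CPM of 8 cell cycle genes on a log axis; each point is 1 library, coloured by replicate number, and the bar is the mean of 3 libraries. In Mki67, EGFP 1 stands at 78.4 CPM above EGFP 2 and 3 at 6.75 and 4.20 CPM, and rM3Ds 2 and 3 at 42.7 and 52.1 CPM above rM3Ds 1 at 4.32 CPM; the other 7 genes show the same libraries highest, except that hM4Di 1 and 3 exceed rM3Ds 3 in E2f1.

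The mitosis genes varied most. For the 21 of 22 with at least 10 counts in every library, the highest library exceeded the lowest by a median of 9.62-fold, up to 23.4-fold for Kif2c, a kinesin that takes microtubules apart. Without EGFP 1, rM3Ds 2 and rM3Ds 3 the median was 4.04 over the 9 other libraries, against 1.45 over all genes with the minimum count. Mki67, the protein used as the Ki-67 label of cycling cells, was at 78.4, 6.75 and 4.2 CPM in EGFP, 9.38, 3.91 and 4.08 CPM in hM3Dq, 4.32, 42.7 and 52.1 CPM in rM3Ds and 18.8, 20.6 and 3.35 CPM in hM4Di. Top2a was at 106, 16.7 and 14.1 CPM in EGFP, 21.8, 13.1 and 16.6 CPM in hM3Dq, 14.6, 68 and 72.8 CPM in rM3Ds and 30.5, 37.7 and 15.7 CPM in hM4Di. In both genes hM4Di 1 and 2 formed a middle level, below rM3Ds 2 and 3 and above every hM3Dq library. The third hM4Di library lay with the low ones.

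Plk1, the kinase that drives entry into mitosis and whose promoter is shown above, was at 33.2, 3.06 and 2.04 CPM in EGFP, 5.23, 2.55 and 3.58 CPM in hM3Dq, 3.22, 19.8 and 17.8 CPM in rM3Ds and 8.57, 10.5 and 3.47 CPM in hM4Di. Aurkb, the kinase of the chromosomal passenger complex with Birc5 (survivin), was at 13.4, 1.5 and 0.932 CPM in EGFP, 2.29, 1.13 and 0.996 CPM in hM3Dq, 1.9, 8.85 and 6.36 CPM in rM3Ds and 3.77, 3.7 and 2.09 CPM in hM4Di. Cenpf, a kinetochore protein, was at 34.6, 3.12 and 2.41 CPM in EGFP, 3.61, 1.78 and 2.76 CPM in hM3Dq, 2.01, 19.1 and 22.1 CPM in rM3Ds and 9.3, 7.23 and 1.53 CPM in hM4Di. In all 3 genes EGFP 1 and rM3Ds 2 and 3 were again the highest libraries, with hM4Di 1 and 2 next. Kif2c was at 15.1, 1.56 and 0.646 CPM in EGFP, 1.99, 0.99 and 1.44 CPM in hM3Dq, 1.5, 7.34 and 9.06 CPM in rM3Ds and 4.32, 5.52 and 2.09 CPM in hM4Di, so that hM3Dq lay wholly below hM4Di.

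Anln, the actin-binding scaffold of the cleavage furrow, was the exception among the mitosis genes, with a highest-to-lowest ratio of 2.22. It was at 98.4, 54.7 and 55 CPM in EGFP, 67.3, 63.1 and 71.4 CPM in hM3Dq, 51.9, 64 and 73.3 CPM in rM3Ds and 44.3, 61.7 and 44.5 CPM in hM4Di. The hM3Dq libraries lay wholly above the hM4Di libraries, opposite to Kif2c, with a difference of 0.47 ± 0.24 (log2, SE; edgeR adjusted p = 0.507). The remaining mitosis genes were the checkpoint kinases Bub1 and Bub1b, the anaphase activator Cdc20 and its partner Ube2c, Aurka and its activator Tpx2, the motors Kif11, Kif20a and Kif23, the kinetochore motor Cenpe, the spindle proteins Prc1, Nusap1 and Hmmr, the cytokinesis factor Ect2, and Birc5. Every one of them was highest in EGFP 1.

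**Figure D3:**
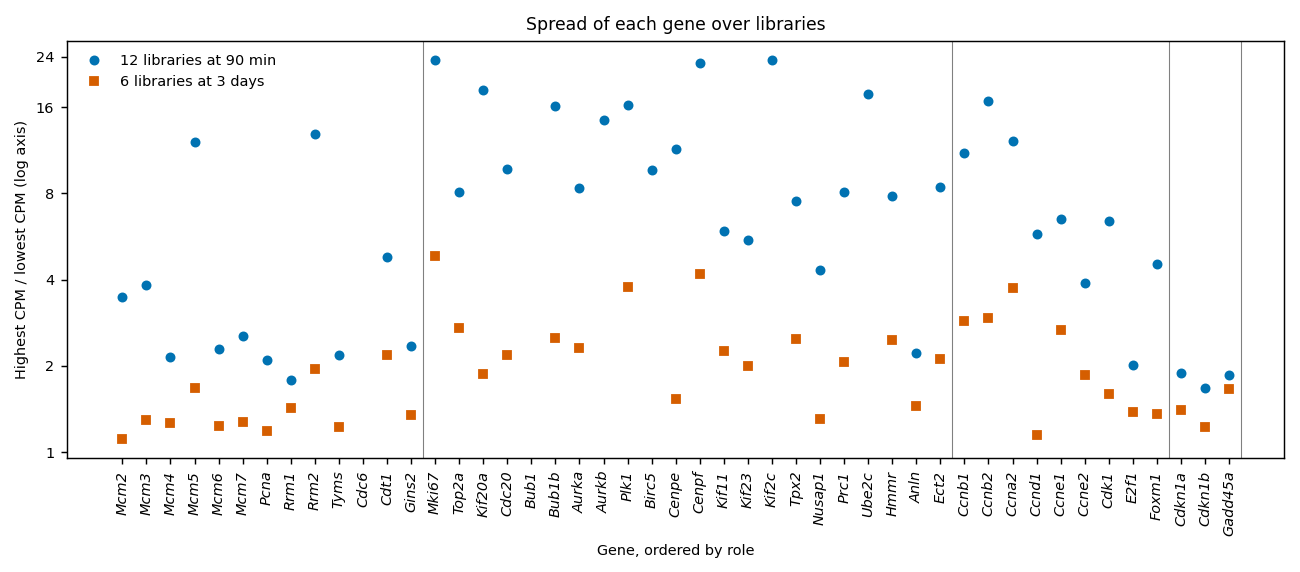
For each gene, the highest CPM divided by the lowest, on a log axis, over 12 libraries at 90 min (circles) and 6 at 3 days (squares); genes with under 10 counts in any library are left out. Mitosis genes reach 23.4 at 90 min (Kif2c) and 4.82 at 3 days (Mki67), while the 3 inhibitors stay between 1.68 and 1.89 at 90 min.

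Cyclins and their partners lay between the replication and mitosis genes, with a median ratio of 6.38 over 9 genes. Ccnb1, the cyclin of the mitotic kinase, was at 40.9, 3.69 and 4.37 CPM in EGFP, 6.74, 3.73 and 4.66 CPM in hM3Dq, 3.8, 26.4 and 25.3 CPM in rM3Ds and 10.0, 13.3 and 4.17 CPM in hM4Di. Ccnb2, its relative, was at 16.4, 0.98 and 1.06 CPM in EGFP, 2.23, 1.19 and 1.4 CPM in hM3Dq, 1.72, 10.6 and 8.82 CPM in rM3Ds and 4.02, 6.39 and 2.2 CPM in hM4Di. Cdk1, the kinase itself, was at 38.9, 6.58 and 6.24 CPM in EGFP, 7.4, 6.1 and 6.8 CPM in hM3Dq, 7.12, 21.8 and 22 CPM in rM3Ds and 9.79, 15.2 and 8.24 CPM in hM4Di, and hM3Dq lay wholly below hM4Di. Foxm1, a factor that drives the mitosis genes, was at 37.4, 9.29 and 9.91 CPM in EGFP, 11.1, 10.9 and 8.26 CPM in hM3Dq, 8.81, 29.4 and 26.1 CPM in rM3Ds and 16.4, 15.1 and 9.84 CPM in hM4Di. The 3 high libraries were the same in all 4 genes. Ccna2, the cyclin of S and G2 phase, had its highest value, 36.9 CPM, in EGFP 1 as well.

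Ccnd1, the cyclin that answers growth factors in G1, was at 3075, 566 and 563 CPM in EGFP, 721, 648 and 628 CPM in hM3Dq, 535, 1850.0 and 1791 CPM in rM3Ds and 1336, 673 and 589 CPM in hM4Di. Here hM4Di 1 alone stood above the other hM4Di libraries, whereas in Mki67 and Top2a both hM4Di 1 and 2 stood above hM4Di 3. Ccne1, which with Cdk2 opens S phase, was at 11.1, 1.9 and 1.75 CPM in EGFP, 1.81, 1.72 and 1.99 CPM in hM3Dq, 2.3, 7.79 and 6.1 CPM in rM3Ds and 4.04, 2.33 and 2.58 CPM in hM4Di. Ccne2 was at 12.3, 4.16 and 4.04 CPM in EGFP, 4.85, 3.17 and 3.98 CPM in hM3Dq, 4.09, 9.18 and 8.18 CPM in rM3Ds and 5.34, 4.8 and 3.61 CPM in hM4Di. The hM3Dq libraries of Ccne1 lay wholly below those of rM3Ds and hM4Di, and those of Ccne2 overlapped both. E2f1 varied least of the 9, with a ratio of 2.01, at 45.5, 29.7 and 25 CPM in EGFP, 26.5, 22.6 and 24.5 CPM in hM3Dq, 30.5, 39.9 and 33.4 CPM in rM3Ds and 37.1, 27.6 and 33.9 CPM in hM4Di. It was likewise below rM3Ds and hM4Di in all 3 hM3Dq libraries.

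The inhibitors did not share the 3 high libraries. Their highest-to-lowest ratios were 1.68 to 1.89 at 90 min, against a median of 1.57 over all genes with the minimum count. Cdkn1a (p21) was at 464, 274 and 245 CPM in EGFP, 329, 331 and 302 CPM in hM3Dq, 288, 316 and 289 CPM in rM3Ds and 326, 310.0 and 349 CPM in hM4Di. EGFP 1 was its highest library, as for the genes it restrains. Cdkn1b (p27) was at 116, 195 and 192 CPM in EGFP, 149, 148 and 149 CPM in hM3Dq, 188, 174 and 187 CPM in rM3Ds and 140.0, 158 and 158 CPM in hM4Di. For this gene EGFP 1 was the lowest of the 12 libraries, and hM3Dq lay wholly below rM3Ds.

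Gadd45a, a stress-response gene and p53 target whose protein binds Pcna and can inhibit Cdk1, was the 1 member called between receptors. It was at 27.5, 29.2 and 28.5 CPM in hM3Dq, 32.3, 39.7 and 36.9 CPM in EGFP, 44.2, 41.4 and 47.3 CPM in hM4Di and 43.9, 51.1 and 44.9 CPM in rM3Ds. The 3 hM3Dq libraries were the 3 lowest of the 12, and the EGFP libraries lay between hM3Dq and the other 2 receptors without overlap. EGFP 1 was not the highest library here but the lowest of its group.

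**Figure D4:**
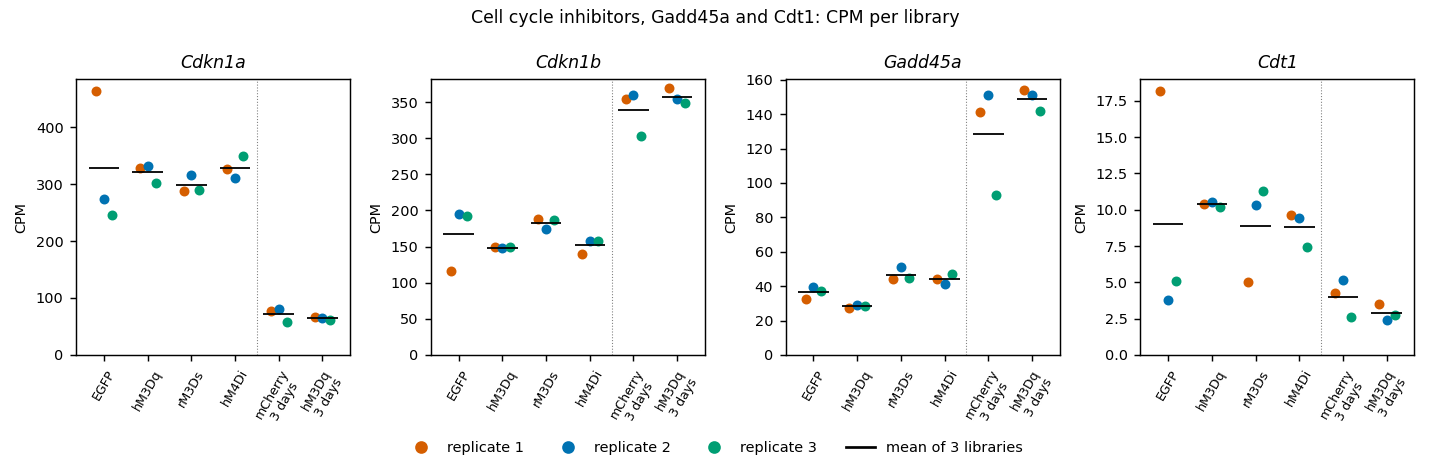
CPM of Cdkn1a, Cdkn1b, Gadd45a and Cdt1 on linear axes from 0; each point is 1 library and the bar is the mean of 3. The hM3Dq points of Gadd45a, from 27.5 to 29.2 CPM, lie below all others at 90 min, and the hM3Dq points of Cdt1, from 10.2 to 10.5 CPM, lie below EGFP 1 and above EGFP 2 and 3.

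No cell cycle member passed the test between hM3Dq and EGFP. Of 47 tested members 0 were called by edgeR's quasi-likelihood test (adjusted p below 0.05 over all genes), where 107 of 13584 genes (0.788%) were called. At an unadjusted p below 0.05 edgeR counted 0 members higher and 1 lower, against 590 and 488 of all genes, and DESeq2 also called 0 members at a background of 1.72%. The fitted values nevertheless leaned 1 way: 46 of 47 were below 0, with a median of -1.31 (log2), against 0 over all genes. With the replicate number as a block edgeR called 66 genes and again 0 members, and the members' median was -1.07. By role the medians without the block were -0.51 for replication, -1.46 for mitosis, -1.34 for cyclins, kinases and factors, and -0.13 for the inhibitors. The lowest fitted values were Mki67 at -2.36 ± 1.20 and Cenpf at -2.29 ± 1.14 (log2, SE; edgeR adjusted p = 0.700 and 0.685). Rrm2 stood at -1.98 ± 0.92 (edgeR adjusted p = 0.647).

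The lean rested on EGFP 1. Without that library, 37 of 47 members lay above 0 and the median was 0.22. Mki67 was then 0.13 and Cdt1 1.27 ± 0.31 (edgeR adjusted p = 0.142). Without EGFP 1, rM3Ds 2 and rM3Ds 3 together, 36 members lay above 0, the median was 0.21, and Cdt1 alone was called, at 1.27 ± 0.19 (edgeR adjusted p = 0.0131, 3 hM3Dq against 2 EGFP libraries). The background of that fit was 1.03%. EGFP 1, at 18.2 CPM, was the highest of the 12 libraries for Cdt1. The libraries were left out for their values in these same members. The call thus only describes the other libraries and is not a test of the effect. Groups that do not overlap gave 0 members higher and 3 lower (Mcm7, Nusap1 and Gadd45a), against 15.5% of all genes in either direction. Gadd45a differed by -0.32 ± 0.09 (edgeR adjusted p = 0.23).

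**Figure D5:**
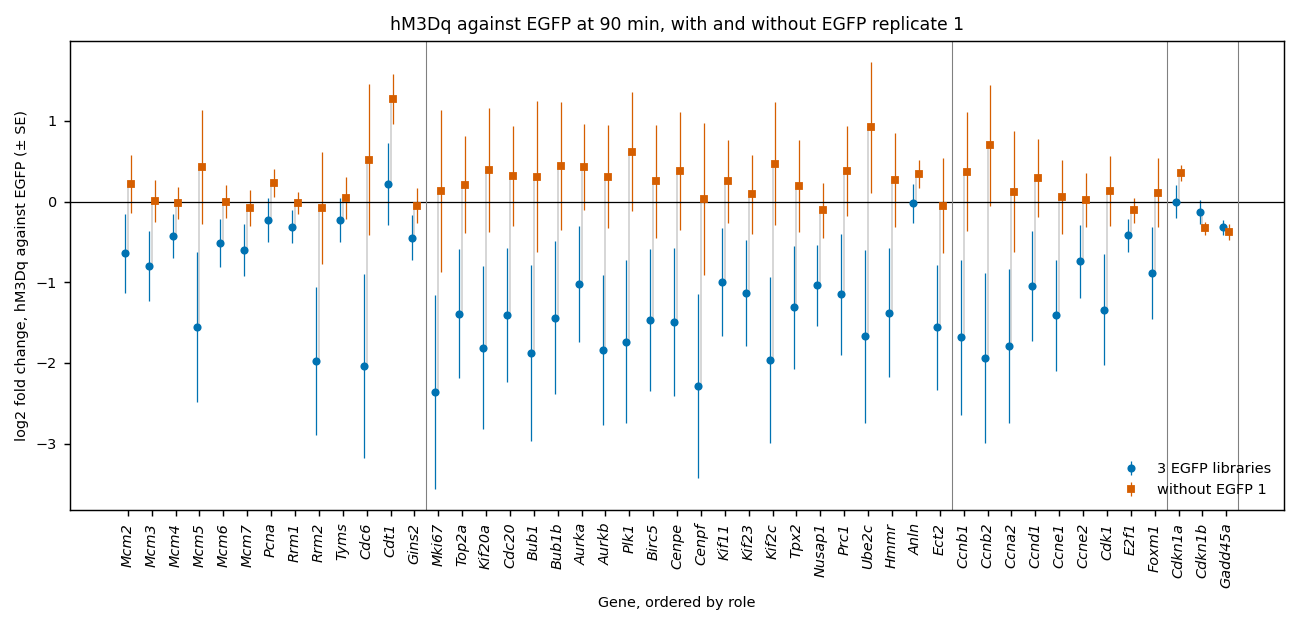
Fitted log2 fold change of each member, hM3Dq against EGFP at 90 min, with its SE, for 3 EGFP libraries (circles) and without EGFP replicate 1 (squares). With all libraries 46 of 47 members lie below 0; without EGFP 1, 37 lie above 0, and the SEs of the mitosis genes mostly span 0.

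No member passed the test for rM3Ds or hM4Di either, against the same EGFP libraries, which all 3 receptor comparisons share. For rM3Ds 0 of 47 members were called (edgeR; background 0.0147%, or 2 genes), with 1 higher and 0 lower at an unadjusted p below 0.05 and a median of 0.03. For hM4Di 0 of 47 were called (edgeR; background 0%, with 315 genes higher and 430 lower at an unadjusted p below 0.05). At that p 1 member was higher and 0 lower, and the median was -0.57. DESeq2 called 0 members in both, at backgrounds of 0.407% and 0.215%. The 1 member higher in each was Gadd45a, at 0.35 ± 0.09 for rM3Ds and 0.27 ± 0.09 for hM4Di (log2, SE; edgeR adjusted p = 0.562 and 0.833). It was also the 1 member without overlap in each, against 7.35% and 8.36% of all genes. Other members with the lowest fitted values were Cdc6 (-0.37 ± 1.06) and Anln (-0.16 ± 0.24) for rM3Ds and Cenpf (-1.17 ± 1.07) and Cdc6 (-1.09 ± 1.07) for hM4Di. Mcm2 was 0.23 ± 0.49 for rM3Ds. Removing EGFP 1 moved the rM3Ds median to 1.50, with 46 members above 0, since rM3Ds 2 and 3 stayed in. It moved the hM4Di median to 0.80, with 45 members above 0.

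Compared directly, hM3Dq had less Gadd45a than both other receptors. Against rM3Ds it fell by 0.67 ± 0.09 on the log2 scale (SE, n = 3 per group; edgeR adjusted p = 0.00558), and against hM4Di it fell by 0.59 ± 0.09 (edgeR adjusted p = 0.0119). It was the 1 member called in each, of 47 tested, where 0.67% and 0.802% of all genes were called; DESeq2 called the same 1 member, at backgrounds of 3.42% and 3.8%. The call against rM3Ds was lost without hM3Dq 1 (edgeR adjusted p = 0.0574), and also without the 3 libraries that stood apart (adjusted p = 0.126, -0.58), when rM3Ds is left with 1 library assumed to vary like the others. The call against hM4Di was lost without hM3Dq 1, 2 or 3 (edgeR adjusted p = 0.0879, 0.064 and 0.0555) or hM4Di 3 (0.0665). It held without the 3 libraries that stood apart (edgeR adjusted p = 0.00868, -0.58), but none of these belongs to hM3Dq or hM4Di. The libraries compared stayed the same and only shared parts of the fit changed, such as the estimate of spread.

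Over all 47 members, Gadd45a included, the fitted values leaned lower in hM3Dq than in rM3Ds (44 below 0, median -1.28) and than in hM4Di (43 below 0, median -0.66). At an unadjusted p below 0.05 edgeR counted 0 members higher and 2 lower against rM3Ds, with Gadd45a among them, and 0 higher and 1 lower against hM4Di, which was Gadd45a itself. Against rM3Ds the lowest were Mki67 at -2.47 ± 1.21 and Cenpf at -2.36 ± 1.14, and Rrm2 was at -2.13 ± 0.93 (edgeR adjusted p = 0.341). Without the 3 libraries that stood apart the median was 0.24 and 36 members lay above 0. Against hM4Di the lowest were Kif2c at -1.38 ± 1.03 and Ccnb2 at -1.35 ± 1.05 (log2, SE, edgeR adjusted p = 0.692 and 0.706). The signs stayed at 43 below 0 without the 3 libraries that stood apart, none of which is in this comparison. Groups did not overlap for 6 members against rM3Ds, all lower (Mcm6, Nusap1, Ccne1, E2f1, Cdkn1b and Gadd45a), where 22.8% of all genes did not. Against hM4Di it was 10 lower (Mcm2, Mcm3, Mcm6, Mcm7, Gins2, Kif2c, Ccne1, Cdk1, E2f1 and Gadd45a) and 2 higher (Cdt1 and Anln), where the share of all genes was 21%.

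At 3 days after stimulation the cell cycle genes were flatter and no member was called between hM3Dq and mCherry. Of 46 tested members (all but Aurkb, which did not pass the filter on low counts) 0 were called by edgeR, as were 0 of 12807 genes (0%); DESeq2 called 0 members at a background of 1.22%. At an unadjusted p below 0.05 edgeR counted 0 members higher and 5 lower, against 583 and 957 of all genes. The median was -0.25, with 36 members below 0. The smallest p belonged to the S-phase cyclins: Ccne2 at -0.51 ± 0.17 and Ccna2 at -1.09 ± 0.36 (log2, SE; edgeR adjusted p = 0.321 for both). Bub1 was lowest at -1.36 ± 0.67 (edgeR adjusted p = 0.441), and E2f1 was highest at 0.25 ± 0.11, beside Gadd45a at 0.24 ± 0.17.

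Ccne2 was at 4.04, 3.74 and 3.44 CPM in hM3Dq and 4.87, 5.04 and 6.39 CPM in mCherry, without overlap. Ccna2 was at 2.0, 1.69 and 2.52 CPM in hM3Dq and 2.35, 4.81 and 6.33 CPM in mCherry, where replicate 1 lay within the hM3Dq range. The other tested members without overlap were Mcm5, Mcm6, Mcm7, Tyms and Hmmr, all lower in hM3Dq; these 6 compare with 25.5% of all genes. Mcm5 was at 2.49, 2.62 and 2.84 CPM in hM3Dq and 3.09, 4.16 and 4.02 CPM in mCherry. Among the genes of mitosis Mki67 was at 2.89, 2.73 and 3.43 CPM in hM3Dq and 2.0, 6.57 and 9.65 CPM in mCherry, and Top2a at 12.6, 14.1 and 16.4 CPM and 11, 16.9 and 29.8 CPM. In both the mCherry libraries spread on either side of hM3Dq, with replicate 3 highest and replicate 1 lowest.

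Plk1 was at 1.27, 1.22 and 1.28 CPM in hM3Dq and 0.704, 2.59 and 2.66 CPM in mCherry at 3 days. Bub1, the checkpoint kinase, was at 0.457, 0.872 and 0.535 CPM in hM3Dq and 0.379, 1.51 and 3.0 CPM in mCherry. Both overlapped, with mCherry 1 at the low end. Aurkb, which was not tested here, was at 0.152, 0.523 and 0.535 CPM in hM3Dq and 0.542, 1.33 and 0.963 CPM in mCherry, so that hM3Dq lay just below mCherry without overlap. Ccnb1 was at 2.84, 3.95 and 4.07 CPM in hM3Dq and 2.66, 4.82 and 7.59 CPM in mCherry, and Cdk1 at 7.21, 9.01 and 8.24 CPM and 6.18, 9.89 and 7.48 CPM. Foxm1 was at 5.43, 5.76 and 5.83 CPM and 4.66, 6.33 and 6.23 CPM. In Ccnb1, Cdk1 and Foxm1 the groups overlapped. For genes of the G1 and S phases, Ccnd1 was at 276, 295 and 303 CPM in hM3Dq and 264, 282 and 286 CPM in mCherry, and Ccne1 at 1.17, 1.98 and 1.34 CPM and 1.84, 2.41 and 3.12 CPM. E2f1 was at 34.6, 29 and 32.5 CPM and 29.2, 28.1 and 25.1 CPM. E2f1 overlapped although 2 of its hM3Dq libraries were above every mCherry library. Mcm2 was at 17.8, 18.4 and 18.5 CPM in hM3Dq and 18.6, 19.1 and 17.2 CPM in mCherry, Pcna at 57.9, 59.3 and 53.4 CPM and 57.3, 62.8 and 55.4 CPM, and Rrm2 at 3.86, 3.95 and 4.66 CPM and 4.61, 5.31 and 7.54 CPM. Mcm2 had the narrowest range of the 41 members with at least 10 counts in every 3-day library, with a ratio of 1.11.

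Cdkn1a at 3 days was at 66.7, 65 and 60.7 CPM in hM3Dq and 77, 81.4 and 58.1 CPM in mCherry. Cdkn1b was at 369, 354 and 349 CPM and 354, 360.0 and 303 CPM, and Gadd45a at 154, 151 and 142 CPM and 141, 151 and 92.9 CPM. In all 3 the mCherry replicate 3 was the lowest library. Without it Cdkn1a was called lower in hM3Dq, at -0.27 ± 0.06 (log2, SE; edgeR adjusted p = 0.0117), the 1 member among 1257 of 12929 genes (9.72%) called in that fit. That library was also the highest of the 6 libraries for 26 of 47 members. It too was picked by the cell cycle genes, so values without it only describe the other libraries. It did not stand alone in these genes: mCherry 2 was highest for 16 members. mCherry 2 was among the 3 highest for 43 members, against 37 for mCherry 3. Over all genes, 0 were called with mCherry 3 in the fit. Beside the levels at 90 min, Cdkn1a ranged from 58.1 to 81.4 CPM at 3 days against 245 to 464 CPM, Cdkn1b from 303 to 369 CPM against 116 to 195 CPM, and Gadd45a from 92.9 to 154 CPM against 27.5 to 51.1 CPM. These levels come from separate tables and from cultures that differed in time, medium change and control plasmid, so no test was made between them.

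Whether the hM3Dq effect itself differed between 3 days and 90 min was tested with each effect taken against its own control. No member passed: edgeR called 0 of 47, where 0.396% of 13391 genes were called, with 2 members higher and 0 lower at an unadjusted p below 0.05. DESeq2 called 0 members at a background of 1.55%. The median was 0.76 and 45 members lay above 0. Gadd45a differed by 0.56 ± 0.21 and E2f1 by 0.68 ± 0.27 (log2, SE; edgeR adjusted p = 0.428 and 0.457). Cdc6 was highest at 2.26 ± 1.38 and Cdt1 lowest at -0.66 ± 0.70. Without EGFP 1 and mCherry 3 the median turned to -0.27 with 41 members below 0, and edgeR put 4 members below its threshold at a background of 3.72%. These were Cdt1 at -1.94 ± 0.26 and Cdkn1a at -0.62 ± 0.10, and in the other direction Gadd45a at 0.44 ± 0.10 and Cdkn1b at 0.37 ± 0.08 (log2, SE). Both libraries were left out because of their values in these same members, so these are a description of the other libraries and not a test of the effect. Without EGFP 1 alone, to which the same limit applies, Cdt1 was at -1.71 ± 0.34 (edgeR adjusted p = 0.0275).

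Beyond the members, other genes of the same pathways were counted from lists drawn up with the members. In hM3Dq against EGFP edgeR called 0 of 42 further replication genes (0 higher and 3 lower at an unadjusted p below 0.05), 0 of 52 further mitosis genes (0 and 4) and 0 of 26 further cyclin and E2F genes (2 and 2). Their medians were -0.56, -1.02 and -0.13 (log2). Of 26 further inhibitors, p53 targets and antiproliferative genes 1 was called, with 4 higher and 3 lower at an unadjusted p below 0.05. Their fitted values ran from -1.2 to 1.05, with a median of -0.06 (log2). Over all genes 0.788% were called in this comparison. The 1 gene called was Plk2, a polo-like kinase induced by stimulation and stress, which is not a mitotic kinase like Plk1. Plk2 was at 225, 215 and 223 CPM in hM3Dq, 163, 117 and 114 CPM in EGFP, 139, 163 and 161 CPM in rM3Ds and 123, 120.0 and 116 CPM in hM4Di, with hM3Dq above every other library. The difference was 0.78 ± 0.14 against EGFP (log2, SE; edgeR adjusted p = 0.0256) and 0.94 ± 0.14 against hM4Di (adjusted p = 0.00863); against rM3Ds it was 0.56 ± 0.14 (adjusted p = 0.104). The call of Plk2 against EGFP was lost with the replicate block (edgeR adjusted p = 0.0697) and without hM3Dq 1, 2 or 3 or EGFP 2 or 3 (adjusted p of 0.0842 to 0.131), and that against hM4Di without hM3Dq 1 or hM4Di 3 (0.0605 and 0.0651). Btg2, an antiproliferative early response gene, was at 51.9, 60.9 and 53.2 CPM in hM3Dq, 44.2, 34.2 and 33.1 CPM in EGFP, 37.1, 46 and 37.5 CPM in rM3Ds and 34.6, 35.9 and 38.6 CPM in hM4Di. It rose against hM4Di by 0.66 ± 0.13 (edgeR adjusted p = 0.0448) and stood at 0.60 ± 0.13 against EGFP (edgeR adjusted p = 0.0732). Against hM4Di 2 of these 26 genes were called, Plk2 and Btg2, where 0.802% of all genes were called. Without EGFP 1, left out for its cell cycle values, the adjusted p of Btg2 against EGFP was 0.0105 (edgeR). In that fit 103 of 13766 genes were called, and it only describes the other libraries. The call of Btg2 against hM4Di was lost without any 1 of the 6 libraries compared (edgeR adjusted p of 0.0892 to 0.226).

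With all libraries in the fit, edgeR called no further gene of these lists in any comparison. Plk2 and Btg2 stood at -0.73 and -0.88 (log2) in the difference between times. Without EGFP 1 they were called, at -0.94 and -1.04 (edgeR adjusted p = 0.000566 and 0.00318), where 170 of 13520 genes were called. EGFP 1 was left out because of its cell cycle values, so these values only describe the other libraries. Gins3, a helicase subunit and partner of Gins2, had the smallest p among the further replication genes in 3 comparisons of hM3Dq at 90 min, at -0.92 ± 0.24 against EGFP, -0.80 ± 0.24 against rM3Ds and -0.77 ± 0.24 against hM4Di (log2, SE; edgeR adjusted p = 0.186, 0.190 and 0.213). It was at 2.17, 2.43 and 2.75 CPM in hM3Dq, below all 9 other libraries, which ranged from 3.63 to 5.99 CPM. The mitotic phosphatase Cdc25b was at 8.33, 9.0 and 7.87 CPM in hM3Dq and 25.2, 13.3 and 10.1 CPM in EGFP, a difference of -0.92 ± 0.29 (edgeR adjusted p = 0.347). Espl1, the protease that releases sister chromatids, was at 2.53, 2.13 and 2.54 CPM and 14.5, 3.86 and 4.31 CPM in the same groups, a difference of -1.63 ± 0.58 (edgeR adjusted p = 0.452). Both lay without overlap below EGFP, EGFP 2 and 3 included. Bbc3, a p53 target that promotes cell death, was at -0.53 ± 0.13 in hM3Dq against rM3Ds (edgeR adjusted p = 0.0996). At 3 days the smallest p among the further genes belonged to Cdk6, a partner of cyclin D, at -0.45 ± 0.14 (edgeR adjusted p = 0.294), and Mdm4, a p53 inhibitor, at -0.43 ± 0.13 (edgeR adjusted p = 0.305). Without mCherry 3 Mdm4 was called, at -0.28 (edgeR adjusted p = 0.0117), where 9.72% of all genes were called. That library was left out because of its cell cycle values, so this only describes the other libraries.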

How the data were processed

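Bulk RNA-seq of 18 libraries of cultured mouse cortical astrocytes was used, from poly-A selected RNA per the labels' protocols. Salmon 1.8.0, fastp 0.23.4 and build mm39 appear in the submitters' processing notes. The deposited values are the authors' estimated counts per gene, not normalised, in 1 table of the 90 min libraries and 1 of the 3-day libraries; 55.9% and 30.5% of the values were not whole. How transcripts were summed to genes and whether strand was used are not given in the sources used here, so paralogs and overlapping or antisense genes are uncertain. Symbols were matched by Entrez identifier for 21978 of 22078 genes (99.55%).

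CPM is a count divided by the library's total. Estimated counts were rounded and tested with edgeR 4.0.16 (R 4.3.3): quasi-likelihood F-test with robust dispersion, TMM, the default filter on low counts, and Benjamini-Hochberg adjustment over all genes tested, called below 0.05. The 4 groups at 90 min were fitted together, the 3-day groups alone, and the difference between times as an interaction over hM3Dq and its controls. Alternatives were DESeq2 1.42.0, its size factors, no filter, fits of the groups compared alone, a replicate block, and fits without single or several libraries. The fits were tested on simulated data. Against EGFP, false calls there were 15 of 171 calls for hM3Dq, 7 of 169 for rM3Ds and 6 of 160 for hM4Di. For hM3Dq they were 19 of 184 against rM3Ds and 3 of 162 against hM4Di. At 3 days they were 19 of 205, and in the difference between times 6 of 148. The share of false calls exceeded 0.05 for hM3Dq against EGFP, for hM3Dq against rM3Ds and at 3 days. Each gene was simulated on its own, without a shift shared by many genes of a library. The simulation therefore does not cover libraries that stand apart.

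The labels number replicates 1 to 3 in each group. Deviations of same-numbered libraries from their group means correlated at 0.133, 0.162 and 0.123 for hM3Dq and EGFP, each over 0.1. Such low values do not show that the numbers mark shared cultures, and the labels state no shared culture or day. The values reported are from fits without the block. Those with the block are given for hM3Dq against EGFP beside the result where a call or count changed, and otherwise in the closing section. The other comparisons had at least 1 pair below 0.1. For rM3Ds and EGFP the correlations were -0.764, -0.573 and -0.566, and for hM4Di and EGFP 0.373, 0.098 and 0.305.

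Values were given in every library for members fixed by role, for called members, and for the 2 members with the smallest p, highest and lowest fold change of each comparison. Of the other pathway genes, called genes and a part of the 2 with the smallest p of each list are named. Further names (Anln, Cdkn1a and Cdkn1b where they are not so chosen, and the promoters of Top2a, Cdk1, Rrm2 and Gadd45a) were chosen after their values were seen. Members and lists were chosen with earlier results of these data known. Some genes are not reported here. Total counts of 16.1 to 25.2 M per library put the floor of 3 counts at 0.119 to 0.187 CPM, which covers counting error only.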

Additional observations from a re-analysis of the deposited data

Results flagged for a closer look

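A difference between receptors that passed its own test was found for 3 genes of the member and pathway lists. Outside these lists, 1 of the 3 tested endothelial markers was called higher in hM3Dq against rM3Ds (edgeR adjusted p = 0.00457). Against hM4Di 1 was called higher as well (edgeR adjusted p = 0.0148). Gadd45a was lower in hM3Dq than in rM3Ds, by -0.67 (log2, edgeR adjusted p = 0.00558), and lower than in hM4Di, by -0.59 (edgeR adjusted p = 0.0119), with all 3 hM3Dq libraries below all 6 others. Plk2 was higher in hM3Dq than in hM4Di by 0.94 (edgeR adjusted p = 0.00863), again in 3 of 3 libraries. Btg2 was higher in hM3Dq than in hM4Di by 0.66 (edgeR adjusted p = 0.0448), in 3 of 3 libraries. The Btg2 call was lost in each of 6 fits without a single library, and that of Plk2 in 2 of 6. The Gadd45a call was lost in 1 of 6 such fits against rM3Ds and in 4 of 6 against hM4Di. Of all genes, 22.8% did not overlap between hM3Dq and rM3Ds, and 21% between hM3Dq and hM4Di.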

How the results depend on the processing

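Under DESeq2, its size factors in edgeR, no filter on low counts, and fits of only the groups compared, the number of members called stayed at 0 or 1 as in the same comparison above; Btg2 against hM4Di was lost with DESeq2 size factors and with no filter (edgeR adjusted p = 0.0541 and 0.0505), and Plk2 against EGFP in the fit of those groups alone (0.138). DESeq2 called Btg2 against EGFP (adjusted p = 0.0055), Plk2 and Bbc3 against rM3Ds (0.0108 and 0.0161), and Btg2 and Plk2 in the difference between times (0.00407 and 0.0193); Plk2 against rM3Ds was also called in the edgeR fit of those groups alone (0.0363). With the replicate block it was also unchanged: the members' median was then -1.07, 0.41, -0.36, -1.37, -0.65, -0.22 and 0.34 in the order hM3Dq, rM3Ds and hM4Di against EGFP, hM3Dq against rM3Ds and hM4Di, hM3Dq at 3 days, and the difference between times. The block turned the sign of Cdc6 for rM3Ds against EGFP (0.46), of Cdkn1a for hM4Di against EGFP (0.01) and of Anln in the difference between times (-0.02); Gadd45a stayed called under it, at -0.66 and -0.59 (edgeR adjusted p = 0.0197 and 0.0327). Plk2 against EGFP and Btg2 against hM4Di were not called under the block (0.0697 and 0.119). It moved the calls over all genes from 107 to 66 for hM3Dq against EGFP, from 91 to 53 against rM3Ds and from 109 to 61 against hM4Di.

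Leaving out EGFP 1, rM3Ds 2 and rM3Ds 3, picked by their cell cycle values, gave these values, which only describe the other libraries. For hM3Dq against EGFP 1 member was called and the median was 0.21; for hM4Di against EGFP the median was 0.78; for hM3Dq against rM3Ds 0 members were called and the median was 0.24. Signs turned for Mki67 (0.12), Cenpf (0.01) and Anln (0.33) in hM3Dq against EGFP; for Cdkn1a (0.14), Mcm2 (-0.05) and Kif14 (-3.46) in rM3Ds against EGFP; for Cenpf (1.13), Cdc6 (1.47), Cdkn1a (0.32) and Cdc25b (0.03) in hM4Di against EGFP; and for Rrm2 (0.20), Mki67 (0.47), Cenpf (0.47) and Cep55 (0.02) in hM3Dq against rM3Ds. Without EGFP 1 and mCherry 3, the difference between times had 4 members called and a median of -0.27, and Cenpf (-0.05), Cdc6 (-0.03) and Anln (-0.16) turned. The cause was not tested.

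With single libraries left out, the median ran from -1.73 to 0.22 for hM3Dq against EGFP, -0.35 to 1.50 for rM3Ds, -0.98 to 0.80 for hM4Di, -0.45 to -0.12 at 3 days and -0.50 to 1.18 for the difference between times. Members called ran from 0 to 1 in hM3Dq against rM3Ds, in hM3Dq against hM4Di, at 3 days and in the difference between times. Ranges that crossed 0 were those of Mki67 (-2.90 to 0.13), Cenpf (-2.78 to 0.03), Cdt1 (-0.15 to 1.27), Cdkn1a (-0.18 to 0.35) and Anln (-0.17 to 0.34) for hM3Dq against EGFP; Cdkn1a (-0.34 to 0.21), Cdc6 (-0.87 to 2.20), Anln (-0.31 to 0.21) and Mcm2 (-0.08 to 1.09) for rM3Ds against EGFP; Cenpf (-1.67 to 1.16), Cdc6 (-1.58 to 1.49), Cdkn1a (-0.20 to 0.35) and Cdc25b (-0.71 to 0.06) for hM4Di against EGFP; Cdt1 (-0.01 to 0.49) for hM3Dq against rM3Ds; and Cdkn1a (-0.49 to 0.04), Cenpf (-0.77 to 2.26), Cdc6 (-0.31 to 2.77) and Anln (-0.33 to 0.20) for the difference between times. Counts under 10 in a library (Cdc6, Bub1 and, at 3 days, Aurkb among them) limit those values by depth.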

Other observations

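The other pathway lists showed how far the pattern of the 3 libraries reached. In EGFP 1 the median gene lay 1.48 above the mean of the 12 libraries for 52 further mitosis genes, with all 52 above it, and 0.80 above for 42 further replication genes, on the log2(CPM + 0.25) scale. In rM3Ds 2 and 3 the medians were 0.92 and 1.00 for mitosis and 0.42 and 0.35 for replication. The medians of the 26 further cyclin, Cdk and E2F genes, many of which act in G1, were 0.15, 0.10 and 0.14 in these libraries. For 26 further inhibitors and p53 targets the medians were 0.22, 0.11 and 0.04. Low medians do not describe every such gene: the members Ccnd1 and Ccne1 were highest in EGFP 1, at 3075 and 11.1 CPM.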
